A study of Mus musculus with 32 samples.

Results

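A set of 10 transcription factors that steer CD8 T cells between stem-like, memory-forming states and effector, killing states was followed here in CD8 T cells from mouse mammary tumors. The members were chosen by name: Tcf7, Lef1, Id3 and Bach2 as stem-like factors, Id2, Tbx21, Eomes and Zeb2 as effector factors, and Foxo1 and Myb, which count among the stem-like and memory factors but were kept outside the summary of the 2 sides. All 10 had a row in both CD8 T cell tables, out of 33654 rows that carry a gene symbol. RNA came from CD8 T cells labelled week 2, week 3 or week 4 of tumor development in the MMTV-PyMT model (3 libraries each). A second set held CD8 T cells, given as wild type, from xenografts labelled shMogat1 (3 libraries) or shCTRL (3 libraries). In MMTV-PyMT mice a mammary-active viral promoter drives the polyoma middle T oncogene. In the second set the tumor cells are the ones named as carrying a hairpin RNA, against Mogat1 or a control one. Mogat1 encodes a monoacylglycerol acyltransferase of triglyceride synthesis. Mouse strain, age, sex, the cell isolation and the immune state of the xenograft host are not given in the sources used here, nor is the number of animals behind a library.

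TCF-1 (Tcf7) and LEF-1 (Lef1) are related DNA-binding proteins that keep naive, memory and stem-like exhausted CD8 T cells able to renew. Id2 and Id3 bind E proteins, such as those encoded by Tcf3 and Tcf12, and keep them off E-box DNA; Id3 marks memory precursors and Id2 effector cells. T-bet (Tbx21) and Eomes are related T-box factors: T-bet drives effector genes and, with Zeb2, terminal effector differentiation, while Eomes also serves memory cells. Bach2 restrains effector genes at AP-1 sites, Foxo1 drives Tcf7, Klf2 and homing receptor genes, and Myb sustains stem-like cells. In tumors, TCF-1-positive cells are known as the pool from which more differentiated T cells arise.

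Values are TPM, a transcript measure in which read numbers are scaled by gene length and library total. Whole read numbers could be recovered for the members from the steps between TPM values, and they ranged from 171 reads for Zeb2 in its lowest library to 50076 for Tcf7 in its highest. Genes solved in this way made up 30.9% to 35.2% of a library's TPM and 8.43 to 13.6 megareads, a lower limit of its depth. Libraries of one week differed by 21.9 to 69.7 times the sampling noise (chi-square per degree of freedom, genes with 500 to 3000 reads), and libraries of one label in the knockdown set by only 2.52 to 6.66 times. The labels tie no library to an animal, and p-values here measure the spread between these libraries, which may be technical, above all in the knockdown set. Across the 15 libraries the summed level of 8 T cell identity genes (Cd3d, Cd3e, Cd3g, Cd8a, Cd8b1, Cd2, Cd5, Ptprc) was 4868 to 6492 TPM, and Cd4 was 0.584 to 18.8 TPM. Of these genes Ptprc, which is not limited to T cells, had group means of 1045 to 1260 TPM. Summed macrophage and monocyte genes were 53.7 to 666 TPM in the weeks and 1808 to 2065 TPM in the knockdown set. Week 4 replicate 2 stood apart from the other week 4 libraries in several members, and week 2 replicate 2 and week 3 replicate 3 from theirs in fibroblast genes. The weeks and the knockdown set are different sets of tumors, held in separate tables. Tests therefore stay inside 1 table and used limma on log2(TPM + 1) and Benjamini-Hochberg adjustment over all tested genes. "Rose" and "fell" mark an adjusted p under 0.05.

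The sequences just before the transcription start are shown for the 2 members that rose (Id2, Tbx21) and 2 of the 3 that fell (Lef1, Myb) at week 4, since the Id proteins act on factors that bind E-boxes. Tcf7, which also fell, is not shown and had an E-box in its window. They are the 250 bases before the RefSeq start on the gene's strand, 5′ to 3′, in GRCm38.p6 (mm10). Capitals mark a motif found by letters on either strand.
Id2 (chr12:25096093-25096342, minus strand, E-box): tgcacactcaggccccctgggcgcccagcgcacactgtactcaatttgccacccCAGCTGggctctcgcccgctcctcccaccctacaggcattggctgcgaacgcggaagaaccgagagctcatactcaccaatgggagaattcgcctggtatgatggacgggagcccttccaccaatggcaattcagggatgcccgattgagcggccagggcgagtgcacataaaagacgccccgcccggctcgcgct
Tbx21 (chr11:97115332-97115581, minus strand, E-box): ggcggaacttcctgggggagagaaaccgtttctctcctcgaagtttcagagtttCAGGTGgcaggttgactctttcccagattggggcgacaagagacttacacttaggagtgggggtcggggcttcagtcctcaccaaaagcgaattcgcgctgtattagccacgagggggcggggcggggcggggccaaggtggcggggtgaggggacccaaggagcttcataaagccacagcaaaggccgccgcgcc
Lef1 (chr3:131110047-131110296, plus strand, none of the motifs found): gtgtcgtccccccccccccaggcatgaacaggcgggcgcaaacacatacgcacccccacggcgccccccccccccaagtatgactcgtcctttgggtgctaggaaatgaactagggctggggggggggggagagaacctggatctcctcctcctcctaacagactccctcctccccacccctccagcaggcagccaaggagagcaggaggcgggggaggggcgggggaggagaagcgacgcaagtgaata
Myb (chr10:21160985-21161234, minus strand, T-box): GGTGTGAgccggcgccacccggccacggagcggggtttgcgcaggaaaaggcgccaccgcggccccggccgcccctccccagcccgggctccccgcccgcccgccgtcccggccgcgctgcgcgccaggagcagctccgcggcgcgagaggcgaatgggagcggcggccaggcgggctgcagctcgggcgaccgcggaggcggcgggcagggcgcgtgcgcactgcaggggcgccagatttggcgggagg
Both strands were searched for the E-box letters CAGCTG and, as a second form, CACCTG, the form found in Tbx21 on the other strand. The TCF/LEF letters were CTTTGA followed by A or T, those of T-box factors GGTGTGA, those of FOXO factors GTAAACA, those of BACH and AP-1 TGACTCA, and those of MYB AACTGAC with AACTGCC as a second form. An E-box stood in the windows of 3 of the 10 members (Tcf7, Id2, Tbx21), against 27.4% of 27025 windows of all genes. The Tcf7 window (chr11:52283015-52283264) lies wholly inside the gene's own RefSeq span (52246527 to 52283383), as does that of Bach2. The Tcf7 E-box is thus within the gene and not before it. The Eomes window overlaps the start of its gene's span. The T-box letters stood in the Myb window alone of the 10, against 3.31% of all windows. No member's window held the TCF/LEF, FOXO, BACH and AP-1 or MYB letters, which 7.69%, 3.06%, 4.43% and 5.66% of all windows held. A match is a run of letters, not a bound site.

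The factors stood at very different levels. At week 2, Tcf7 averaged 1046 ± 358 TPM (SD, n = 3), Id2 298 ± 64.0 and Lef1 257 ± 65.4, followed by Foxo1 at 87.0 ± 29.4 and Myb at 73.8 ± 22.9 TPM. Id3, Eomes, Tbx21 and Bach2 lay close together, at 34.7 ± 3.05, 29.4 ± 4.71, 28.2 ± 2.75 and 24.8 ± 8.34 TPM, within or near each other's spread, and Zeb2 was lowest at 2.92 ± 1.13 TPM. At week 4 Id2, at 468 ± 29.1 TPM, stood above Tcf7, at 380 ± 225 TPM, although the Tcf7 spread includes the Id2 mean. Tbx21 and Lef1 followed at 85.5 ± 17.0 and 85.4 ± 70.2 TPM.

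**Figure D1:**
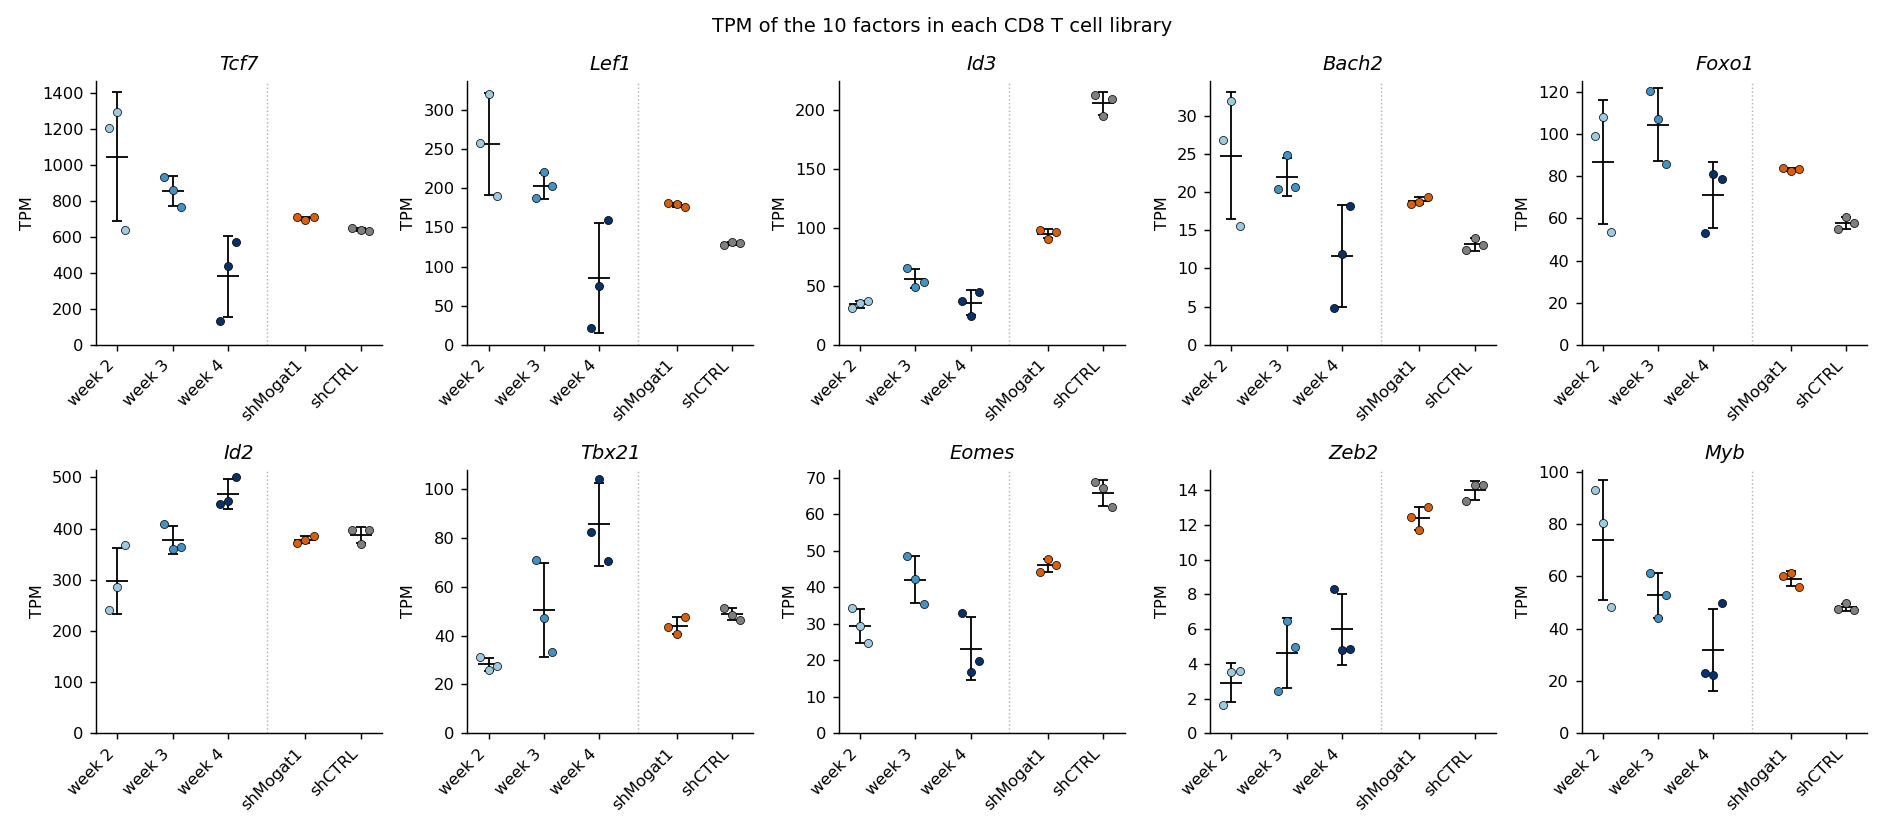
TPM of each factor (y axis, linear, from 0, own scale per panel) in each CD8 T cell library by group (x axis). Points are libraries, dashes and bars are mean ± SD (n = 3), and the dotted line parts the 2 separate tables. Tcf7 and Lef1 lie lower in all week 4 libraries than in all week 2 libraries, and Id2 and Tbx21 higher; Id3 is lower in all shMogat1 libraries than in all shCTRL libraries.

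Between week 4 and week 2, which asks how the CD8 T cells of late tumors differ from those of early ones, 2 of the 4 effector factors rose (Tbx21 and Id2) and 2 of the 4 stem-like factors fell (Tcf7 and Lef1), and Myb fell as well. Mean Tbx21 was 3.03 times as high at week 4, and mean Tcf7 and Lef1 stood at 0.364 and 0.333 times their week 2 level. Bach2, Id3, Foxo1, Eomes and Zeb2 did not pass the test. The 5 members called compare with 17.5% of the 13350 genes tested, of which 10.3% rose and 7.18% fell. The values of 5 members did not overlap between the weeks, nor did those of 37.0% of the genes tested.

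Tcf7 had 133, 436 and 572 TPM at week 4, against 1204, 1296 and 636 TPM at week 2. Every week 4 library lay below every week 2 library, the nearest pair being 572 and 636 TPM. On the log2(TPM + 1) scale it fell by 1.63 ± 0.48 (SE; adjusted p = 0.0470, limma). Lef1 had 20.9, 75.1 and 160 TPM at week 4, against 259, 321 and 190 TPM at week 2, again without overlap, and fell by 1.97 ± 0.58 (adjusted p = 0.0458, limma). In week 4 replicate 2 both factors were lowest, Lef1 with 20.9 and Tcf7 with 133 TPM, and in week 4 replicate 4 both were highest of that week.

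Myb had 23.1, 22.4 and 49.96 TPM at week 4, against 92.8, 80.2 and 48.4 TPM at week 2. It fell by 1.24 ± 0.33 (adjusted p = 0.0320, limma), although week 4 replicate 4 reached just above week 2 replicate 3. Bach2 had 4.76, 11.9 and 18.2 TPM at week 4, against 26.9, 31.9 and 15.6 TPM at week 2; its groups overlapped, with a log2 difference of -1.14 ± 0.41 (adjusted p = 0.0811, limma). That difference was -0.65 without week 4 replicate 2, and it passed without week 2 replicate 3 (-1.43, adjusted p = 0.0440, limma) or week 4 replicate 4 (-1.52, adjusted p = 0.0268, limma). Summed B cell genes, another cell type known for Bach2, were 9.92 to 18.8 TPM at week 4, against 18.3 to 110 TPM at week 2; their part in the Bach2 values was not tested. In bulk libraries fewer cells of a type and less RNA per cell cannot be told apart. Foxo1 had 53.0, 81.2 and 78.7 TPM at week 4, against 99.3, 108 and 53.4 TPM at week 2, with a log2 difference of -0.25 ± 0.27 (adjusted p = 0.539, limma). Id3 had 37.7, 24.6 and 45.3 TPM at week 4, against 31.2, 35.7 and 37.1 TPM at week 2, a difference of 0.01 ± 0.21 (adjusted p = 0.984, limma).

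Tbx21 had 82.4, 104 and 70.3 TPM at week 4, against 31.3, 25.9 and 27.6 TPM at week 2. All week 4 libraries lay above all week 2 libraries, and Tbx21 rose by 1.55 ± 0.25 on the log2 scale (adjusted p = 0.00594, limma). Id2 had 449, 454 and 501 TPM at week 4, against 241, 285 and 367 TPM at week 2, and rose by 0.67 ± 0.15 (adjusted p = 0.0163, limma) with no overlap. Eomes, the other T-box factor, had 33.0, 16.8 and 19.9 TPM at week 4, against 34.2, 29.3 and 24.8 TPM at week 2, a log2 difference of -0.37 ± 0.24 (adjusted p = 0.285, limma). Zeb2 had 8.33, 4.79 and 4.85 TPM at week 4, against 1.62, 3.53 and 3.61 TPM at week 2; the groups did not overlap, but the difference of 0.84 ± 0.34 did not pass the test (adjusted p = 0.115, limma). Zeb2 is also expressed by macrophages, and the summed macrophage and monocyte genes were 257 to 381 TPM at week 4, against 53.7 to 325 TPM at week 2. The summed NK cell genes were 164 to 363 TPM at week 4, against 21.5 to 93.3 TPM at week 2, mostly from Fcer1g, while the defining NK receptor Ncr1 averaged 8.41 ± 3.13 TPM at week 4 and 3.29 ± 1.97 TPM at week 2. The part of these genes in the Tbx21 and Zeb2 values was not tested.

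These calls differ in how far they rest on single libraries. Tbx21 passed the test under all 12 alternatives, Id2 under 9, Myb under 6 and Tcf7 and Lef1 under 4 each, and the direction of all 5 was the same throughout. Leaving out week 2 replicate 1, week 2 replicate 2, week 4 replicate 2 or week 4 replicate 3 gave adjusted p = 0.131, 0.142, 0.06995 and 0.06997 for Tcf7, 0.113, 0.135, 0.0545 and 0.0883 for Lef1 and 0.108, 0.102, 0.110 and 0.0991 for Myb (limma), and without either of the first 2 the p of Id2 was 0.0546 and 0.0588. Without week 4 replicate 2 the log2 differences of Tcf7 and Lef1 were -0.997 and -1.19, well short of those with all libraries.

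**Figure D2:**
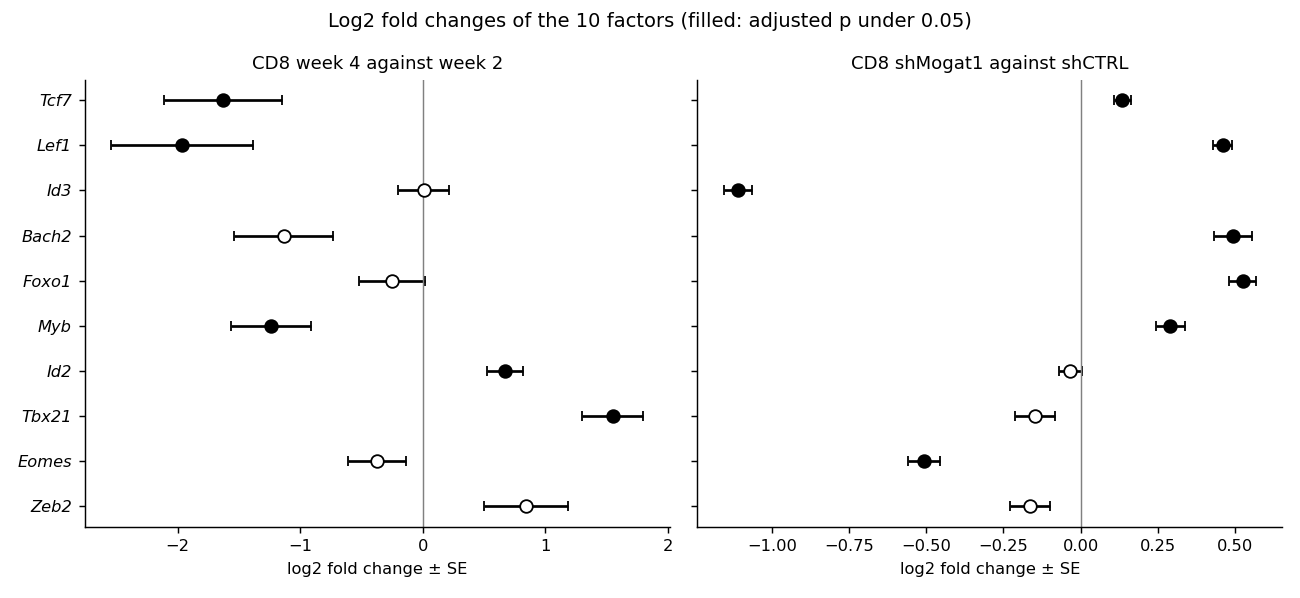
Log2 fold change (x axis, difference of mean log2(TPM + 1), bars ± SE from limma, 3 libraries a group) of each factor (y axis) for week 4 against week 2 on the left and shMogat1 against shCTRL on the right, with different x scales; filled points had an adjusted p under 0.05. On the left Tbx21 and Id2 are to the right of 0 and Tcf7, Lef1 and Myb to the left; on the right Id3 and Eomes are to the left and Foxo1, Bach2, Lef1, Myb and Tcf7 to the right.

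Week 3 stood between the other weeks for some factors and apart from both for others. No member passed the test between week 3 and week 2, where 0.0449% of genes did (6 of 13350), and 3 members had an unadjusted p under 0.05 (limma), as had 13.7% of genes. No member passed between week 4 and week 3 either, where 2.67% of genes did, and 7 members had an unadjusted p under 0.05 (limma), as had 24.5% of genes. These comparisons share their week 3 libraries with each other and the week 2 or week 4 libraries with the one above. The median gene differed by 0.10 in log2 between week 3 and week 2 and by -0.13 between week 4 and week 3, so the values below are to be read against those shifts.

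Tcf7 had 934, 858 and 768 TPM at week 3, within its week 2 range and above all week 4 libraries, with a log2 difference of -1.40 ± 0.48 at week 4 against week 3 (adjusted p = 0.137, limma). Lef1 had 187, 221 and 203 TPM at week 3, also above all week 4 libraries. Tbx21 spread widely at week 3, with 70.9, 47.0 and 33.4 TPM, all above week 2 and reaching the lowest week 4 library. Id3 was highest at week 3, with 65.7, 49.5 and 53.9 TPM, above every library of week 2 and of week 4. Its log2 difference was 0.68 ± 0.21 at week 3 against week 2 (adjusted p = 0.248, limma) and -0.67 ± 0.21 at week 4 against week 3 (adjusted p = 0.111, limma). Eomes followed the same order, with 48.5, 42.3 and 35.5 TPM at week 3, above all libraries of both other weeks, and a log2 difference of -0.88 ± 0.24 at week 4 against week 3 (adjusted p = 0.0844, limma; 0.0373 without week 4 replicate 2). Foxo1 had 120, 107 and 85.8 TPM at week 3, Id2 408, 360 and 364 TPM, Myb 61.1, 44.1 and 53.0 TPM, Bach2 20.4, 24.8 and 20.6 TPM and Zeb2 2.47, 6.50 and 4.95 TPM. Of these, Id2 lay below and Foxo1 and Bach2 above all week 4 libraries, and Myb and Zeb2 overlapped week 4. At week 4 against week 3 Lef1 and Myb passed only without week 4 replicate 4 among the 12 alternatives (adjusted p = 0.0340 and 0.0474, limma), and Tbx21 only without week 3 replicate 1 (adjusted p = 0.0482, limma).

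The balance of the 2 sides was summarised per library as the mean log2(TPM + 1) of Tcf7, Lef1, Id3 and Bach2 minus that of Id2, Tbx21, Eomes and Zeb2; it is a description without a test. It was 2.15, 2.22 and 1.48 at week 2, 1.41, 1.37 and 1.52 at week 3, and -1.05, 0.29 and 1.06 at week 4. All week 4 libraries lay below all libraries of weeks 2 and 3, and week 4 replicate 2 was the only one of the 15 in which the effector side was higher. The mean difference was -1.85 at week 4 against week 2, made up of -1.18 on the stem-like side and 0.67 on the effector side. At week 3 against week 2 the stem-like side differed by 0.01 and the effector side by 0.53, and at week 4 against week 3 the stem-like side differed by -1.19 and the effector side by 0.14. By side means, the difference between week 3 and week 2 lay mostly on the effector side. That between week 4 and week 3 lay mostly on the stem-like side. The side that differed little held opposed members each time. At week 3 against week 2 Id3 differed by 0.68, and Tcf7, Lef1 and Bach2 by -0.23, -0.30 and -0.11. At week 4 against week 3 Eomes differed by -0.88, and Tbx21, Zeb2 and Id2 by 0.80, 0.34 and 0.31. No member passed either test. Without week 4 replicate 2 the mean difference of week 4 against week 2 was -1.28 and that of week 4 against week 3 was -0.76.

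**Figure D3:**
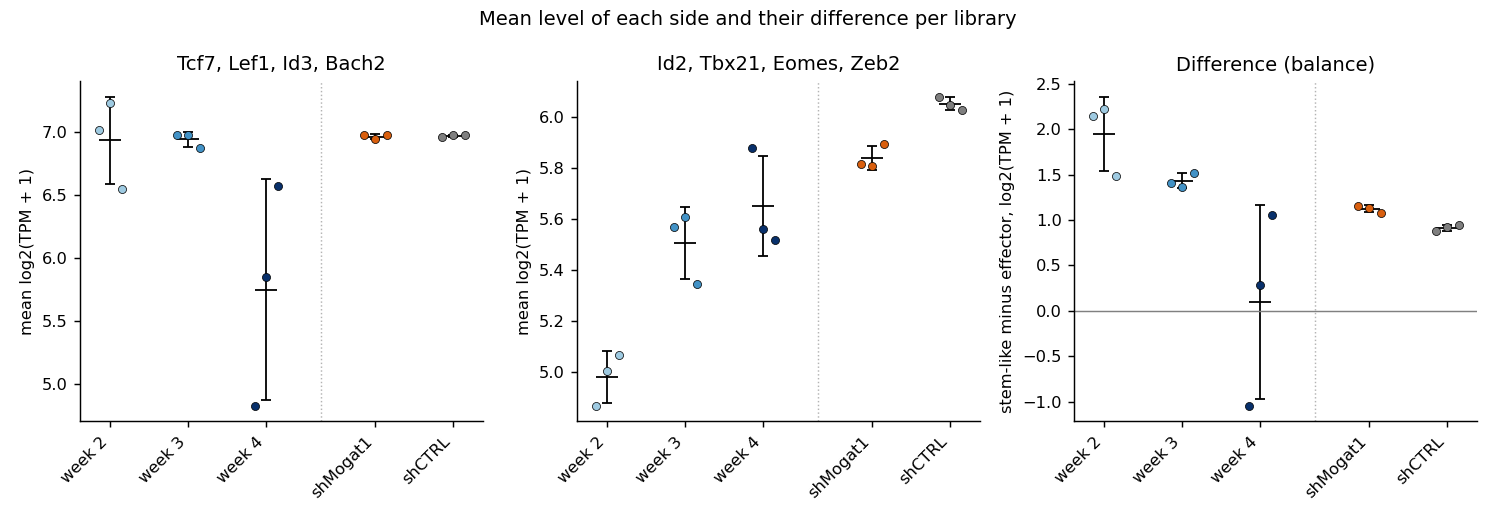
Mean log2(TPM + 1) per library of the 4 stem-like factors (left), of the 4 effector factors (middle) and the difference of the 2 (right) by group (x axis); points are libraries, dashes and bars are mean ± SD (n = 3), axes do not start at 0, and the dotted line parts the 2 tables. The week 4 libraries run from -1.05 to 1.06 in the right panel, below all week 2 and week 3 libraries; the shMogat1 libraries lie above the shCTRL libraries.

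Single pairs were compared in the same way. Tcf7 stood at 38.5, 50.1 and 23.1 times Tbx21 in TPM at week 2, 13.2, 18.2 and 23.0 times at week 3 and 1.61, 4.20 and 8.13 times at week 4, so that the groups of week 4 and week 2 were well apart. Tcf7 stood at 4.99, 4.54 and 1.73 times Id2 at week 2, at 2.11 to 2.38 times at week 3, within the week 2 range, and at 0.296, 0.961 and 1.14 times at week 4. Within the T-box pair, Tbx21 was 0.913, 0.884 and 1.11 times Eomes at week 2, 1.46, 1.11 and 0.940 times at week 3 and 2.50, 6.18 and 3.54 times at week 4. The 2 factors thus stood near even at weeks 2 and 3, and Tbx21 was above Eomes in every week 4 library. Id3 was 0.101 to 0.129 times Id2 at week 2, 0.138 to 0.161 times at week 3 and 0.0541 to 0.0903 times at week 4, so this ratio was highest at week 3.

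**Figure D4:**
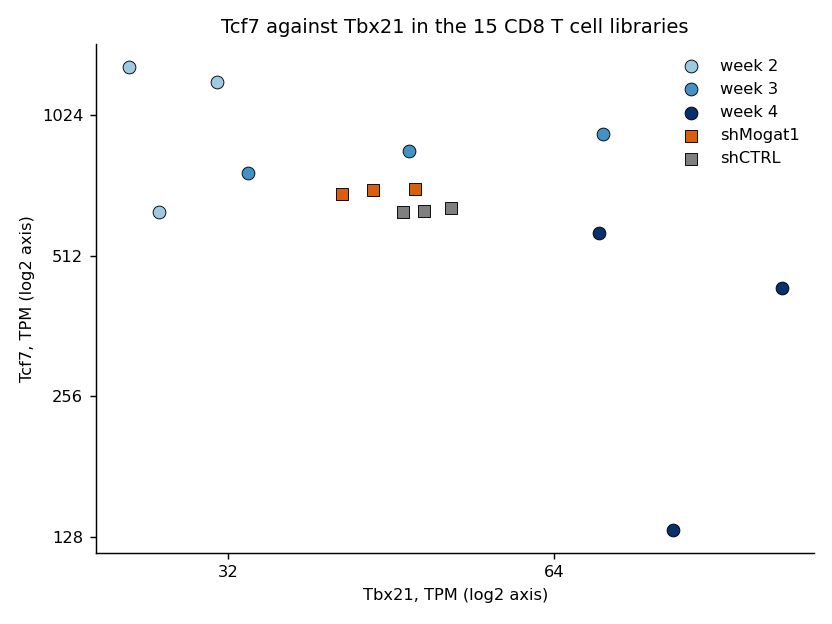
Tcf7 (y axis) against Tbx21 (x axis) in TPM, both axes log2, in each of the 15 CD8 T cell libraries. Circles are the weeks, squares the knockdown set, which is from a separate table. The week 4 libraries lie to the lower right, with Tcf7 at 133 to 572 and Tbx21 at 70.3 to 104 TPM, and the shMogat1 and shCTRL libraries lie close together.

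Other genes of these cell states were taken from lists of naive and memory genes, of effector genes and of other fate factors. The lists are not sets of known targets of the members. Of 15 naive and memory genes, 8 fell and 1 rose (Tnfsf8, by 0.70) at week 4 against week 2, and the median log2 difference was -1.10, against -0.01 over all tested genes. The homing gene S1pr1 averaged 171 ± 129 TPM at week 4 and 620 ± 142 TPM at week 2 (SD, n = 3 each) and fell by 2.24 on the log2 scale (adjusted p = 0.0312, limma). Klf2, the factor that drives S1pr1, averaged 316 ± 194 TPM at week 4 and 888 ± 227 TPM at week 2 and fell by 1.72, and Igfbp4 fell by 1.68. Of 15 tested effector genes, 11 rose and none fell, with a median of 1.15. Gzmb, encoding granzyme B, averaged 1316 ± 609 TPM at week 4 and 161 ± 121 TPM at week 2 and rose by 3.17 (adjusted p = 0.00633, limma); Gzma rose by 3.12 and the chemokine gene Ccl3 by 2.63. Gzmb and Ccl3 passed under all 12 alternatives, Igfbp4 under 11, S1pr1 under 7 and Klf2 and Gzma under 6.

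Among 20 other fate factors 5 rose and 3 fell, with a median of 0.21; beside those below, Tox, Nfil3 and Stat3 rose and Bcl6 and Ikzf1 fell. Bhlhe40, a factor of tissue-resident and activated T cells, averaged 265 ± 17.5 TPM at week 4 and 80.7 ± 7.71 TPM at week 2 and rose by 1.71 (adjusted p = 0.00158, limma); it also rose by 1.205 against week 3. Rbpj, the Notch partner, rose by 1.46, and Klf3 fell by 1.85. Of 9 tested E proteins and close relatives of the members, 2 fell (Foxo3 by 0.95 and Bach1 by 0.72) and none rose. At week 4 against week 3, 1 naive and memory gene fell (Igfbp4, by 2.03), 2 effector genes rose (Klrd1 and Cst7) and 3 other fate factors rose (Bhlhe40, Rbpj and Nfil3). At week 3 against week 2 none of them passed the test (limma), and an unadjusted p under 0.05, which 13.7% of all tested genes had, was found for 6 of 15 effector genes, 4 of 20 other fate factors and 1 of 15 naive and memory genes.

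Other features of the libraries moved with the weeks. All 6 cell cycle genes rose at week 4 against week 2, such as Mki67, which averaged 101 ± 45.4 TPM at week 4 and 23.7 ± 2.94 TPM at week 2. Of the 8 T cell identity genes Cd8a and Cd3g rose by 0.59 and 0.58, Cd5 and Cd2 fell by 0.81 and 0.52, and the median was -0.26. The mitochondrial share of TPM was 6.79%, 7.09% and 5.95% at week 4, against 3.56%, 3.92% and 4.67% at week 2. Summed neutrophil genes were 18.0 to 64.6 TPM at week 4, against 0.669 to 16.3 TPM at week 2, and summed endothelial genes 27.8 to 71.0 TPM at week 4, against 95.5 to 124 TPM at week 2. Neither sum nor the mitochondrial share overlapped between these weeks. Summed CD4 and regulatory T cell genes were 74.8 to 113 TPM at week 4, against 36.1 to 45.8 TPM at week 2, also without overlap. Of these 4 genes only Ikzf2 passed the test, and it rose by 1.85. Mean Cd4 was 3.60 TPM at week 4 and 5.62 TPM at week 2, and mean Foxp3 was 5.81 and 9.55 TPM. Summed fibroblast genes were 40.9 to 49.5 TPM at week 4, against 91.7, 637 and 115 TPM at week 2, and 568 TPM in week 3 replicate 3. Summed epithelial and tumor cell genes were 157 to 239 TPM at week 4, against 71.5 to 113 TPM at week 2. Of these 7 genes Cdh1, at 109 ± 34.4 TPM at week 4 and 23.3 ± 4.22 TPM at week 2, rose, and Krt19, at 0.0675 ± 0.0597 TPM at week 4 and 5.18 ± 5.72 TPM at week 2, fell. The part of these in the members' values was not tested.

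In the knockdown set the targeted gene stood under 1 TPM, and in tumor cells its direction went against the labels, at a level that may be too low to judge them. Mogat1 was 0.624, 0.146 and 0.531 TPM in tumor cell libraries labelled shMogat1 and listed at 0 in all 3 labelled shCTRL. In CD8 T cells, which are not named as carrying the hairpin, it was 0.208 to 0.577 TPM in libraries labelled shMogat1 and 0.208 to 0.286 TPM in those labelled shCTRL, which overlap and come to 3 to 8 reads labelled shMogat1 and 4 reads in each library labelled shCTRL. All directions below therefore hold for libraries by their labels.

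CD8 T cells from xenografts labelled shMogat1 had more Foxo1, Bach2, Lef1, Myb and Tcf7 and less Id3 and Eomes than those labelled shCTRL. These are 7 of the 10 members, where 42.8% of 13742 genes passed the test, 16.6% higher and 26.2% lower. An unadjusted p under 0.05 was found for 51.0% of all tested genes (limma). The share of all tested genes whose values did not overlap between the labels was not determined. A lack of overlap below is therefore not to be read as particular to the members. After median-of-ratios rescaling 50.3% of the genes called were higher, against 38.8% as deposited. The stem-like side was split, with 3 higher and 1 lower, and the differences of the factors other than Id3 were smaller than those between weeks 4 and 2 that passed the test there.

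Id3 differed most: it had 97.9, 90.6 and 96.2 TPM in libraries labelled shMogat1, against 213, 195 and 209 TPM in those labelled shCTRL, and fell by 1.11 ± 0.05 (adjusted p = 2.16e-06, limma). The labels did not overlap: the highest shMogat1 library lay at 97.9 TPM and the lowest shCTRL library at 195 TPM. Id3 was also high in the tumor cell libraries, at 476 to 498 TPM labelled shMogat1 and 442 to 448 TPM labelled shCTRL. Summed fibroblast genes in the CD8 T cell libraries were 852 to 903 TPM labelled shMogat1, against 1798 to 1834 TPM labelled shCTRL, and Dcn averaged 121 ± 3.12 TPM labelled shMogat1 and 596 ± 0.858 TPM labelled shCTRL. The part of other cells in the Id3 values was not tested.

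Foxo1 had 84.0, 82.7 and 83.2 TPM labelled shMogat1, against 54.9, 60.5 and 57.7 TPM labelled shCTRL, and rose by 0.52 ± 0.04 (adjusted p = 5.92e-05, limma). Bach2 had 18.5, 18.7 and 19.4 TPM labelled shMogat1, against 12.4, 14.0 and 13.01 TPM labelled shCTRL, and rose by 0.49 ± 0.06 (adjusted p = 0.000575, limma). Lef1 had 181, 180 and 176 TPM labelled shMogat1, against 128, 131 and 131 TPM labelled shCTRL, and rose by 0.46 ± 0.03 (adjusted p = 1.96e-05, limma). None of these overlapped between the labels, nor did Myb, with 56.0 to 61.4 TPM labelled shMogat1, against 47.2 to 49.7 TPM labelled shCTRL, which rose by 0.29. Tcf7 had 708, 692 and 710 TPM labelled shMogat1, against 649, 638 and 634 TPM labelled shCTRL. Its rise of 0.13 ± 0.03 (adjusted p = 0.00507, limma) came to 9.81% of the mean level.

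Eomes had 44.2, 47.7 and 46.1 TPM labelled shMogat1, against 68.7, 67.0 and 61.8 TPM labelled shCTRL, and fell by 0.51 ± 0.05 (adjusted p = 0.000183, limma) without overlap. Of 4 tested NK cell genes 2 fell, Ncr1 by 1.11 and Klra4 by 0.95, and 1 rose, Fcer1g by 0.16. Ncr1 averaged 0.586 ± 0.243 TPM labelled shMogat1 and 2.43 ± 0.610 TPM labelled shCTRL. The part of NK cell genes in the Eomes values was not tested. Zeb2 had 12.4, 11.7 and 13.02 TPM labelled shMogat1, against 13.4, 14.3 and 14.3 TPM labelled shCTRL, a difference of -0.16 ± 0.06 that did not pass (adjusted p = 0.0756, limma). Summed macrophage and monocyte genes were 1964 to 2065 TPM labelled shMogat1, against 1808 to 1855 TPM labelled shCTRL, without overlap. Summed fibroblast genes, given above, and dendritic cell genes, given below, were lower labelled shMogat1, and epithelial and tumor cell genes were higher. The part of these genes in the Zeb2 values, and so in the effector side of the balance, was not tested. Tbx21 had 43.5, 40.7 and 47.6 TPM labelled shMogat1, against 51.4, 48.5 and 46.4 TPM labelled shCTRL, with overlap and a difference of -0.15 ± 0.06 (adjusted p = 0.1002, limma; 0.0377 without shMogat1 replicate 3). Id2 had 371, 378 and 386 TPM labelled shMogat1, against 398, 369 and 396 TPM labelled shCTRL, a difference of -0.03 ± 0.04 (adjusted p = 0.487, limma) whose sign turned after rescaling.

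The balance was 1.16, 1.13 and 1.08 in libraries labelled shMogat1, against 0.88, 0.93 and 0.94 in those labelled shCTRL. The difference of 0.21 lay on the effector side, where the mean was lower by 0.21, while the stem-like side differed by -0.01, the Id3 difference being opposed to those of Lef1, Bach2 and Tcf7. With the median factor of each side in place of the mean the difference was 0.00337, and with Foxo1 and Myb added to the stem-like side it was 0.345, so its size depends on which factors are counted. Tcf7 stood at 14.9 to 17.0 times Tbx21 labelled shMogat1 and at 12.6 to 13.7 times labelled shCTRL. Id3 stood at 0.239 to 0.264 times Id2 labelled shMogat1 and at 0.528 to 0.535 times labelled shCTRL.

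Of the 15 naive and memory genes 10 rose and 3 fell under the shMogat1 label, with a median of 0.23, against -0.05 over all tested genes. S1pr1 averaged 405 ± 5.23 TPM labelled shMogat1 and 253 ± 5.18 TPM labelled shCTRL (SD, n = 3 each) and rose by 0.67 (adjusted p = 2.53e-06, limma), and the interleukin-7 receptor gene Il7r rose by 0.51. Igfbp4 averaged 364 ± 7.60 TPM labelled shMogat1 and 756 ± 46.0 TPM labelled shCTRL and fell by 1.05; Ltb and Actn1 fell by 0.17 and 0.16. Of 15 tested effector genes 8 fell and 2 rose (Ifng by 0.26 and Il2rb by 0.18): Klrg1 fell by 1.47, the perforin gene Prf1 by 0.71 and Gzmb by 0.70. Of 20 other fate factors 10 rose, such as Ets1 by 0.52 and Klf3 by 0.42, and 3 fell, Gata3 by 0.39, Bhlhe40 by 0.24 and Runx1 by 0.18. Of 10 tested E proteins and relatives 7 fell and 1 rose (Foxo4, by 0.28); Id1, the relative of Id2 and Id3, averaged 10.6 ± 0.627 TPM labelled shMogat1 and 19.9 ± 1.97 TPM labelled shCTRL and fell by 0.85. All 6 cell cycle genes fell, Mki67 by 0.80. Summed dendritic cell genes were 11.0 to 13.4 TPM labelled shMogat1, against 45.3 to 47.7 TPM labelled shCTRL, and summed epithelial and tumor cell genes were 217 to 222 TPM labelled shMogat1, against 93.0 to 99.8 TPM labelled shCTRL. Their part in these gene differences, such as that of Igfbp4, was not tested, nor was that of the fibroblast and macrophage genes given above.

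The gene profiles nearest to the member of each side with the widest range were sought among 9523 genes with a mean of at least 5 TPM in both tables, by the root mean square difference of log2(TPM + 1) centred within each table. Lef1 had the widest range of the stem-like side, 3.88 in log2, and the nearest were S1pr1 (0.147), Als2cl (0.156) and Cpne4 (0.197). Tbx21 had the widest range of the effector side, 1.96, and the nearest were Tmem2 (0.145), Gdpd5 (0.148) and Chsy1 (0.152). These are descriptions over 15 libraries that share their weeks and labels.

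In the tumor cell libraries, given for scale, the stem-like pair was low next to the CD8 T cells, with Tcf7 at 12.01 to 63.2 TPM and Lef1 at 2.32 to 9.77 TPM. Tbx21, Eomes, Myb and Bach2 were at most 2.95, 2.74, 6.87 and 6.50 TPM there. Id3 and Id2 were abundant in both cell types, with Id3 at 37.8 to 498 TPM and Id2 at 55.4 to 332 TPM in tumor cells, and Zeb2, at 8.54 to 31.5 TPM, was higher in all tumor cell libraries than in all CD8 T cell libraries of the weeks.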

How the data were processed

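RNA was extracted with TRIZOL and made into stranded mRNA libraries, per the labels' protocols. The authors deposited 1 TPM table per cell type and set, 33681 rows each. FastQC, Trim Galore and HISAT2 with mm10 are named, without versions, in the submitters' processing notes. The counter, its strand setting, the annotation and the gene lengths are not given in the sources used here, so reads of Bach2, Eomes and Zeb2 and of their antisense partners (Bach2os, Gm33460 and Zeb2os, at most 6.81, 4.09 and 3.92 TPM) may have been mixed. The same holds for Lef1, Foxo1 and Myb, which overlap Gm43352, Gm20402 and Gm26577 on the opposite strand; levels of these were not analysed here. Of each, 27 rows that carry a date in place of a symbol were left out. All value columns were used.

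Tests used limma 3.58.1 in R 4.3.3 (lmFit, eBayes with trend) on log2(TPM + 1). A gene was tested if at least 3 libraries of the table had a TPM of 1 or more, with all groups of a table in 1 fit and Benjamini-Hochberg adjustment over all tested genes (threshold 0.05). Fold changes on this scale understate changes of genes with few TPM. All 10 members passed this filter in both tables. Read numbers recovered from TPM steps (tolerance 0.01 of a read) describe depth only and cover counting error. The procedures were tested on simulated data. Levels across tables are descriptions. Tables were handled in Python 3.11.15 with pandas 2.3.3 and numpy 2.4.6, and plots were drawn with matplotlib 3.10.9.

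The members and gene lists were chosen with earlier results of these data known. Beside the members, the text names up to 3 genes per list and comparison with the largest change past the threshold, the nearest profiles by the stated measure and defining markers; further genes of small counts were named after their values were seen. Alternatives changed the pseudocount (0.1), filter, scaling, variance trend, weeks in the fit, a replicate block and each library left out. Same-numbered libraries did not deviate together (correlations of deviations -0.24 to 0.43 in the weeks, 0.03 and 0.05 in the knockdown set), so the block is only an alternative. Promoter windows are from RefSeq, and all 10 members had one. Tcf7, Lef1 and Zeb2 had several listed starts, of which the most upstream was used. For Tcf7, Bach2 and Eomes the start used lies inside the gene's RefSeq span.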

Additional observations from a re-analysis of the deposited data

Results flagged for a closer look

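For 4 of 40 member and comparison pairs every CD8 T cell library of one group lay on one side of the other group, and every tumor cell library on the opposite side; in each case the difference between the cell types was not tested. The same held for 7.76% of the pairs of a tested gene and a comparison. Zeb2 was higher in CD8 T cells at week 4 than at week 2 (log2 ratio of mean TPM 1.04) and lower in tumor cells (-0.97). Bach2 was lower in CD8 T cells at week 4 than at week 3 (-0.92) and higher in tumor cells (0.15), where it stood at 5.94 to 6.50 TPM at week 4 and 5.47 to 5.85 TPM at week 3. Id3 was lower in CD8 T cells labelled shMogat1 than in those labelled shCTRL (-1.12) and higher in tumor cells (0.13). Eomes was lower in CD8 T cells labelled shMogat1 (-0.52) and higher in tumor cells (0.36), at about 1 TPM there.

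Among 20 sets of 4 tumor cell libraries, 2 held a value far from the other three, and chance alone marks about 1 set in 20. Zeb2 was 12.04 TPM in tumor week 3 replicate 1, against 17.0 to 17.4 TPM in the others, and Lef1 was 2.32 TPM in tumor week 4 replicate 3, against 4.42 to 4.74 TPM in the others.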

How the results depend on the processing

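At week 4 against week 2 the number of members past the threshold was 5 as reported, 2 without a filter on low values, 3 without a variance trend, 2 with only the weeks compared in the fit, 2 with a replicate block and 1 to 6 when single libraries were left out; the number of genes was 1356 with only those weeks, 1422 with the block and 928 to 3115 with single libraries left out. At week 3 against week 2, 0 genes passed with the block and 5 to 10 with libraries left out. At week 4 against week 3, 234 genes passed without a filter, 3 with the block and 46 to 630 with libraries left out, with 0 to 2 members; rescaling by median of ratios moved the share of higher genes among those called from 51.7% to 67.6%. With shMogat1 against shCTRL, 4620 to 5465 genes and 7 to 8 members passed with libraries left out, and the balance difference was 0.345 with Foxo1 and Myb counted and 0.00337 with medians. The balance differences of the weeks moved by less than the spread between replicates, and with single libraries left out they ran from -2.33 to -1.28 (week 4 against week 2), -0.75 to -0.38 (week 3 against week 2) and -1.81 to -0.76 (week 4 against week 3), and from 0.190 to 0.229 for the labels. Signs turned for values near 0: Id3 at week 4 against week 2 (-0.0382 with the block, -0.178 to 0.250 with libraries left out), Bach2 (-0.404 to 0.0894) and Foxo1 (-0.00396 to 0.499) at week 3 against week 2, Zeb2 at week 4 against week 3 (-0.0306 with the block) and Id2 for the labels (0.0182 after rescaling). The block also ended the calls of Id2, Tcf7 and Lef1 at week 4 against week 2 (adjusted p = 0.0803, 0.0998 and 0.0594, limma) and of Tcf7 for the labels (adjusted p = 0.0955, limma), but the replicate numbers were not found to pair libraries. The causes were not tested; fewer samples or more genes tested are part of some alternatives. No named gene of another list, tried after seeing the data, turned its sign, and 109 of 758 such values lost their call.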
